A study of Mus musculus with 6 samples.

Results

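The 10 messages described here, from mouse embryonic stem cells, were followed through the resin step of a ribosome purification. They were Lifr, Il6st, Jak1, Stat3 and Socs3 of the leukaemia inhibitory factor (LIF) pathway, and Fgfr1, Spry4, Dusp6, Etv4 and Etv5 of the fibroblast growth factor (FGF) pathway. They were chosen by name as the LIF receptor chain with its targets and the FGF receptor with its ERK target genes. All 10 were found among the 51912 genes matched to the annotation, and all 10 were among the 13231 genes that passed the filter on low counts. The 6 libraries of poly(A) RNA were 3 eluates of a cysteine-charged sulfolink resin and 3 sucrose cushion pellets, all from E14 cells, a mouse embryonic stem cell line. In both groups the cells were of the same line with no genetic change named, had grown on gelatin in medium with 15% serum and LIF, were given fresh medium 1 hour before harvest, and received cycloheximide, which holds ribosomes on messages, at 100 µg/mL for 3 minutes. The lysates were spun through a sucrose cushion; part of each pellet gave RNA directly and the rest went over the resin. The labels name replicates 1 to 3 of each group without saying that they were separate cultures or that a number marks the same pellet. Each p-value therefore reflects only how these particular samples varied, and the main fits did not pair them. The comparison asks how the share of each message among the sequenced messages differed between resin eluate and cushion pellet; it does not measure total RNA per cell or translation. Each library pools all cells, so fewer cells with a message and less of it per cell cannot be told apart.

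LIF is the cytokine that holds mouse embryonic stem cells in self-renewal. It binds LIFR, the product of Lifr, which pairs with gp130, the product of Il6st; kinases of the Janus family, JAK1 chief among them, then phosphorylate STAT3, which enters the nucleus and switches on target genes that include Socs3, an inhibitor of the same receptor complex. FGF4 made by the cells themselves signals through FGFR1 to RAS and the ERK kinases, a route that prepares the cells to leave self-renewal. ERK activity induces Spry4 and Dusp6, which damp the route, and Etv4 and Etv5, which encode transcription factors of the ETS family.

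The messages that follow differ in base composition, which is visible in their coding sequences. The stretches printed here are 120 bases from the middle of the coding sequence of the most abundant transcript of 5 messages, shown because they span the order of change in the eluates from the lowest (Jak1) to the highest (Etv4). They were read 5′ to 3′ on the coding strand from the GENCODE mouse release 21 transcripts (GRCm38), in frame, with a G or C at the third codon position in capitals.
Jak1: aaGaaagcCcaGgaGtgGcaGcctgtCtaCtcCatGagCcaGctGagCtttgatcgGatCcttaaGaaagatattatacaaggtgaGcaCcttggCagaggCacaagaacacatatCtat
Lifr: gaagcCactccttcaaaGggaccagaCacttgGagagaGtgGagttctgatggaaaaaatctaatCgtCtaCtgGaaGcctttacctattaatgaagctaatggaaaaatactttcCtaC
Dusp6: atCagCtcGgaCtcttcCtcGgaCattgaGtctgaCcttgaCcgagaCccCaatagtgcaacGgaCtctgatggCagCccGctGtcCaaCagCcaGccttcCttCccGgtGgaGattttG
Socs3: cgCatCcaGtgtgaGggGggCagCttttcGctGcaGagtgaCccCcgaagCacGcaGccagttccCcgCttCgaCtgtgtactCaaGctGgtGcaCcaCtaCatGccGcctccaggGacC
Etv4: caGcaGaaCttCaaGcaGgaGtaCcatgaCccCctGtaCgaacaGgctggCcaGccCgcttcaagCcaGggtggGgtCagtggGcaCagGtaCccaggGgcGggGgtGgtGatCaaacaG
Of the 40 codons in each stretch, 22 ended in G or C in Jak1 on chromosome 4 (coding bases 1672 to 1791), 13 in Lifr on chromosome 15 (coding bases 1579 to 1698), 28 in Dusp6 on chromosome 10 (coding bases 514 to 633), 30 in Socs3 on chromosome 11 (coding bases 280 to 399) and 31 in Etv4 on chromosome 11 (coding bases 670 to 789). The GC content of the stretches was 46.7% in Jak1, 40.8% in Lifr, 56.7% in Dusp6, 63.3% in Socs3 and 62.5% in Etv4. Over the whole coding sequence, the share of codons ending in G or C was 59.1% in Jak1, 50.5% in Lifr and 77.2% in Dusp6. It was 77.9% in Socs3 and 64.7% in Etv4, so the stretches do not give the order of the whole sequences.

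The eluate libraries held 1.002e+07 to 1.16e+07 estimated counts and the pellet libraries 7.84e+06 to 1.04e+07, and the 10 messages had between 187 and 3395 estimated counts in each library. Levels are given as CPM, estimated counts scaled to a common library total with TMM factors. Pearson correlations of log2 CPM over all tested genes ranged from 0.978 to 0.987 for libraries of the same kind and from 0.940 to 0.967 for an eluate with a pellet. On the leading principal component the eluates lay at -41.8 to -30.5 and the pellets at 19.1, 42.9 and 45.3, pellet 1 being the nearest to the eluates. Without pellet 1, 8 of the 10 messages were called, as with it. Of all genes, 7761 of 13522 tested were called without pellet 1, against 6977 of 13231 with it. The markers fixed for embryonic stem cells were abundant in every library, with 14509 to 14598 TPM (transcript abundance corrected for length) summed in the eluates and 11035 to 12352 TPM in the pellets. Dppa5a made up most of these sums, with 10196 to 10364 TPM in the eluates and 7134 to 8008 TPM in the pellets. Of the 7 markers, 3 were called higher in the eluates, 2 lower and 2 not, beside 52.7% of all genes called. Their median log2 fold change was -0.055. Fibroblast markers summed to 9.03 to 12.3 TPM in the eluates and 5.72 to 9.07 TPM in the pellets, with Lum at 0 in all 6 libraries and 1 of the 6, Thy1, past the filter on low counts; Thy1 averaged 17.3 CPM in the eluates and 10.6 CPM in the pellets (log2 fold change 0.70; edgeR adjusted p = 0.0013). Markers of endoderm and other differentiated cells summed to 8.89 to 9.89 TPM in the eluates and 8.18 to 10.5 TPM in the pellets, and of 6 tested, Sox17 was called, at 2.4 CPM in the eluates and 1.17 CPM in the pellets (log2 fold change 1.05; edgeR adjusted p = 0.0195). The part of these cells in the results was not tested.

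The LIF receptor chain, its kinase and its transcription factor were lower in the eluates, while the feedback inhibitor and 3 messages of the FGF group were higher. Of the 10 messages, 4 were called higher in the eluates (Socs3, Fgfr1, Etv4, Etv5), 4 lower (Lifr, Il6st, Jak1, Stat3) and 2 were not called (Spry4, Dusp6), with edgeR's quasi-likelihood test at an adjusted p under 0.05. Much of the transcriptome differed between eluates and pellets. Of all 13231 genes tested, 52.7% were called, 24.5% as higher and 28.2% as lower, so a share of 8 in 10 called is read against that background. The median log2 fold change, eluate over pellet, was -0.50 for the 5 LIF messages, 0.37 for the 5 FGF messages and 0.0035 for all genes tested. The tenth and ninetieth percentiles over all genes were -0.96 and 0.58.

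**Figure D1:**
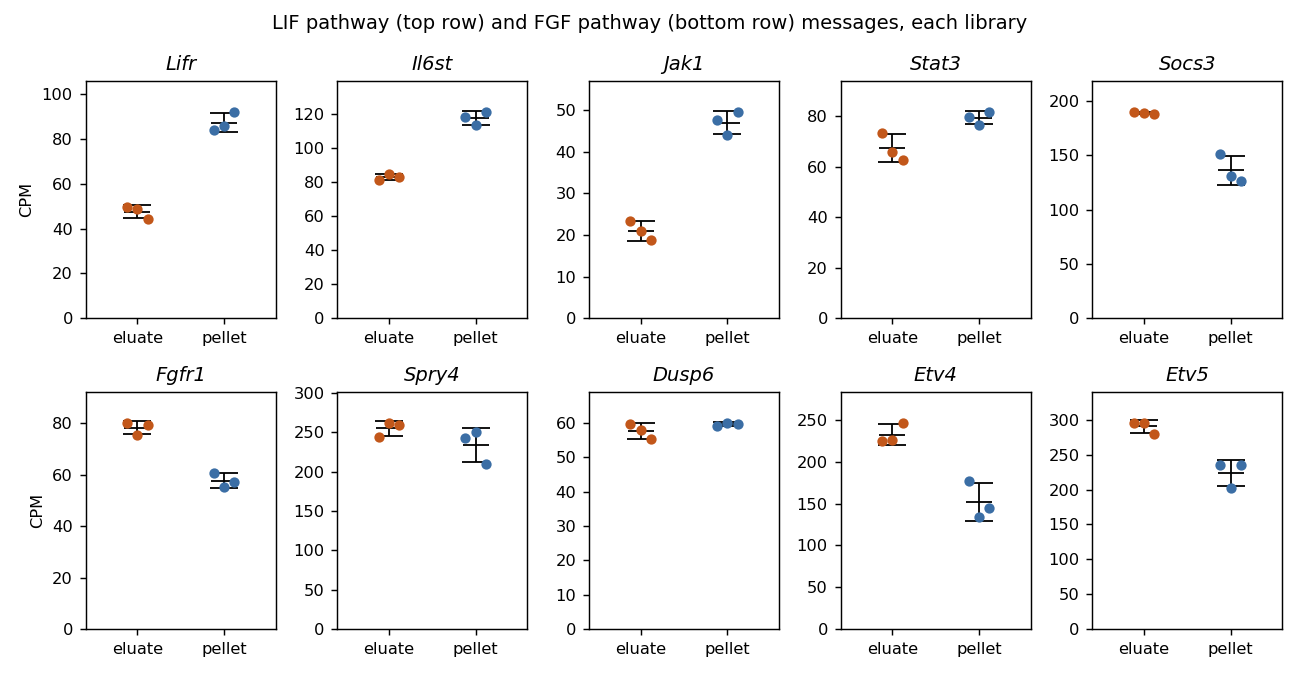
CPM (vertical axis, from 0, a scale of its own for each gene) of the 10 messages in each eluate (left) and pellet (right) library, with the mean and SD of 3 libraries. The eluate points lie wholly below the pellet points for Lifr, Il6st, Jak1 and Stat3 and wholly above them for Socs3, Fgfr1, Etv4 and Etv5, while those of Spry4 and Dusp6 overlap.

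Lifr encodes the ligand-binding chain of the LIF receptor. Its message measured 49.7, 48.7 and 44.3 CPM in eluates 1 to 3, against 84.1, 85.6 and 92.1 CPM in pellets 1 to 3. Every eluate was below every pellet, with means of 47.6 ± 2.85 CPM in the eluates and 87.2 ± 4.23 CPM in the pellets (SD, n = 3 each). The log2 fold change was -0.87 (SE 0.081; edgeR adjusted p = 5.52e-07), or 0.546-fold, with a 95% interval from limma's voom fit of -1.04 to -0.70. With an offset for the abundance-weighted transcript length, an alternative chosen after seeing the data, the value was -0.62 (edgeR adjusted p = 9.2e-06), and the authors' deposited table gives -0.65.

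Il6st encodes gp130, the signalling chain shared by the receptors of the IL6 family. It measured 81.3, 85.1 and 83.1 CPM in the eluates, against 118, 114 and 121 CPM in the pellets. The groups did not overlap, and the eluates varied little around their mean, 83.2 ± 1.91 CPM against 118 ± 3.98 CPM in the pellets (SD, n = 3 each). Il6st thus had a log2 fold change of -0.50 (SE 0.070; edgeR adjusted p = 2.30e-05), or 0.707-fold.

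Jak1, the receptor-bound kinase, changed most of the 10 messages. It had 23.4, 20.9 and 18.7 CPM in the eluates, against 47.6, 43.9 and 49.6 CPM in the pellets. The highest eluate was well below the lowest pellet, with means of 21.03 ± 2.37 CPM in the eluates and 47.0 ± 2.86 CPM in the pellets (SD, n = 3 each). The log2 fold change was -1.16 (SE 0.105; edgeR adjusted p = 4.56e-07), or 0.449-fold, with a 95% interval of -1.38 to -0.92. Of all genes tested, 6.35% had a log2 fold change as low or lower.

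Stat3, the transcription factor activated by JAK1, had 73.4, 65.8 and 62.5 CPM in the eluates, against 79.8, 76.5 and 81.6 CPM in the pellets. The groups did not overlap, but eluate 1 came close to pellet 2. Stat3 had a log2 fold change of -0.24 (SE 0.081; edgeR adjusted p = 0.0227), or 0.849-fold. That call did not survive several other settings: the value was -0.15 with upper quartile factors (edgeR adjusted p = 0.148) and -0.23 with DESeq2 (adjusted p = 0.0576), and without eluate 2, eluate 3 or pellet 3 the edgeR adjusted p was 0.0903, 0.114 and 0.0803.

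Socs3, the STAT3 target that inhibits the receptor complex, went the other way. It measured 190.0, 189 and 188 CPM in the eluates, against 151, 131 and 126 CPM in the pellets. The 3 eluates were nearly level and all lay above the pellets, among which pellet 1 was highest, with means of 189 ± 0.971 CPM in the eluates and 136 ± 13.4 CPM in the pellets (SD, n = 3 each). The log2 fold change was 0.47 (SE 0.075; edgeR adjusted p = 7.46e-05), or 1.39-fold, with a 95% interval of 0.31 to 0.64.

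Fgfr1, the main FGF receptor of these cells, had 80.3, 75.4 and 79.4 CPM in the eluates, against 60.9, 55.1 and 57.3 CPM in the pellets. The groups did not overlap, and the log2 fold change was 0.44 (SE 0.078; edgeR adjusted p = 0.000201), or 1.36-fold, and on the log2(TPM + 1) scale it was 0.27 with a limma adjusted p of 0.0657.

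The feedback inhibitors of the ERK route were not called. Spry4, which encodes a Sprouty protein that restrains the route from receptor to ERK, had 244, 262 and 259 CPM in the eluates, against 243, 250.1 and 209.8 CPM in the pellets. The groups overlapped, and the log2 fold change was 0.12 (SE 0.074; edgeR adjusted p = 0.176), with a 95% interval of -0.040 to 0.29; with upper quartile factors it was called, at 0.21 (edgeR adjusted p = 0.0226). Dusp6, which encodes a phosphatase that dephosphorylates ERK, had 59.8, 58.0 and 55.4 CPM in the eluates, against 59.2, 60.1 and 59.9 CPM in the pellets. Eluate 1 lay among the pellets, and the other two lay below them. The log2 fold change was -0.049 (SE 0.078; edgeR adjusted p = 0.625). Its 95% interval ran from 0.865-fold to 1.08-fold, and its sign turned with upper quartile factors, where the value was 0.042.

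Etv4 and Etv5, the ETS factors induced by ERK, were both higher in the eluates. Etv4 measured 225, 226 and 247 CPM in the eluates, against 178, 134 and 145 CPM in the pellets. No eluate overlapped a pellet, and pellet 1 was the pellet nearest to the eluates. Etv4 had a log2 fold change of 0.61 (SE 0.092; edgeR adjusted p = 8.11e-05), or 1.53-fold, the highest of the 10. Etv5 measured 296, 296 and 280.0 CPM in the eluates, against 235, 203 and 235 CPM in the pellets. These groups also stood apart, with a log2 fold change of 0.37 (SE 0.071; edgeR adjusted p = 0.000371), or 1.30-fold, and on the log2(TPM + 1) scale 0.28 with a limma adjusted p of 0.0567. In all, 8 of the 10 messages had groups that did not overlap in CPM, against 60.3% of all genes tested.

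The order of the 10 log2 fold changes followed base composition closely. Jak1, Lifr and Il6st, the lowest, had GC contents of 47.6%, 45.3% and 48.2% over their transcripts, while Socs3, Fgfr1 and Etv4, the highest, had 58.7%, 56.9% and 58.7%; the median over all genes tested was 50.9%. Across the 10 messages the log2 fold change had a Spearman rho of 0.90 with GC content, -0.72 with coding length and -0.85 with transcript length, and across all 13231 genes its rho with GC content was 0.71. These relations are across genes that share the same 6 libraries and are given as a description. The low messages were also long in coding sequence. Those of Jak1, Lifr and Il6st had 3462, 3279 and 2754 coding bases, against 678 in Socs3 and 1338 in the median gene. Among the messages called higher, however, Fgfr1 had 2463 coding bases, more than the 2313 of Stat3, which was called lower. Etv4 and Etv5, also higher, had 1461 and 1533. The share of codons ending in G or C gave another order. It was 50.5% in Lifr, 56.3% in Il6st and 59.1% in Jak1, but 56.9% in Etv5 and 64.7% in Etv4, both higher in the eluates, and 77.2% in Dusp6, close to the 77.9% of Socs3.

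**Figure D2:**
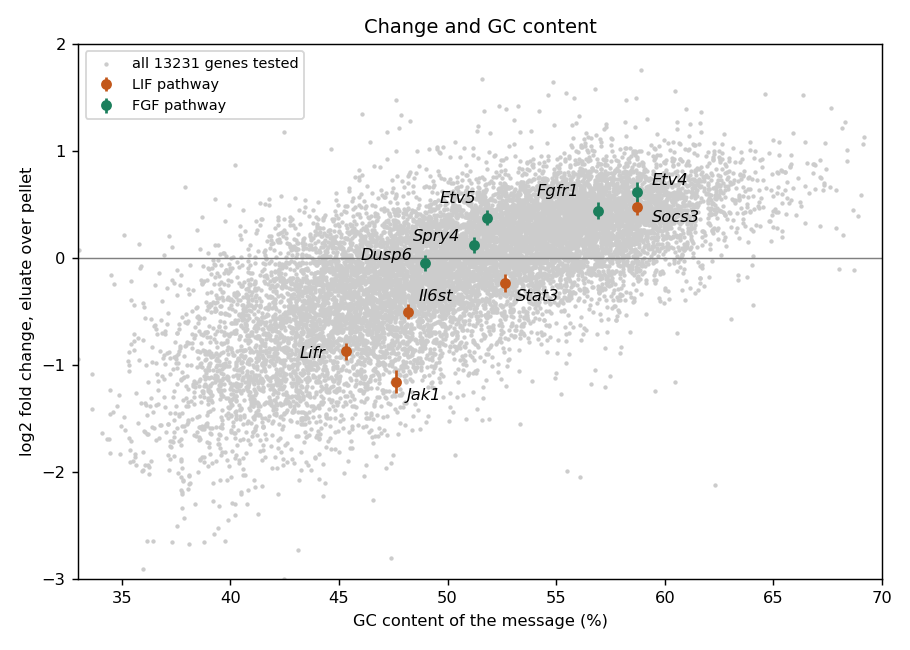
Log2 fold change, eluate over pellet (vertical axis), against GC content of the message in percent (horizontal axis), for all 13231 genes tested (grey; 27 lie outside the axes) and the 10 messages (coloured, bars show SE). The LIF receptors and Jak1 sit at the lower left, at 45.3% to 48.2% GC, and Socs3, Fgfr1 and Etv4 at the upper right, at 56.9% to 58.7% GC.

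With a smooth trend in GC content and length removed from each library, the pattern among the messages was different. Of all genes, 34.8% were then called, 19.0% higher and 15.8% lower, and of the 10 messages 4 were called higher, 1 lower and 5 not. Jak1 was still lower, with a log2 fold change of -0.72 (edgeR adjusted p = 5.13e-07). Lifr was at -0.055 (edgeR adjusted p = 0.581), Il6st at -0.033 (edgeR adjusted p = 0.721) and Stat3 at -0.17 (edgeR adjusted p = 0.0605). Socs3 was at 0.095 (edgeR adjusted p = 0.194). On the FGF side Etv5 was at 0.44 (edgeR adjusted p = 3.84e-07) and Spry4, uncalled on the counts as deposited, at 0.30 (edgeR adjusted p = 0.000396). Fgfr1 was at 0.28 (edgeR adjusted p = 0.00174) and Etv4 at 0.23 (edgeR adjusted p = 0.00289). Dusp6 was again not called, at 0.090. In this fit 4 of the 5 FGF messages were called higher and, of the LIF messages, Jak1 alone was called. With the GC trend alone removed and length left in, 41.2% of all genes were called (22.3% higher, 18.9% lower) and 6 of the 10 messages. All 4 LIF messages that were lower on the counts as deposited were then still called lower: Jak1 at -0.89 (edgeR adjusted p = 6.11e-09), Lifr at -0.41 (edgeR adjusted p = 3.42e-05), Stat3 at -0.35 (edgeR adjusted p = 0.000227) and Il6st at -0.28 (edgeR adjusted p = 0.000702). Etv5, at 0.32 (edgeR adjusted p = 5.17e-05), and Etv4, at 0.22 (edgeR adjusted p = 0.00416), were called higher. Not called were Socs3 at 0.075 (edgeR adjusted p = 0.319), Fgfr1 at 0.11 (edgeR adjusted p = 0.200), Spry4 at 0.11 (edgeR adjusted p = 0.171) and Dusp6 at 0.11 (edgeR adjusted p = 0.244). GC content, length and the purification step move together here, and their parts in the change cannot be told apart from these libraries.

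**Figure D3:**
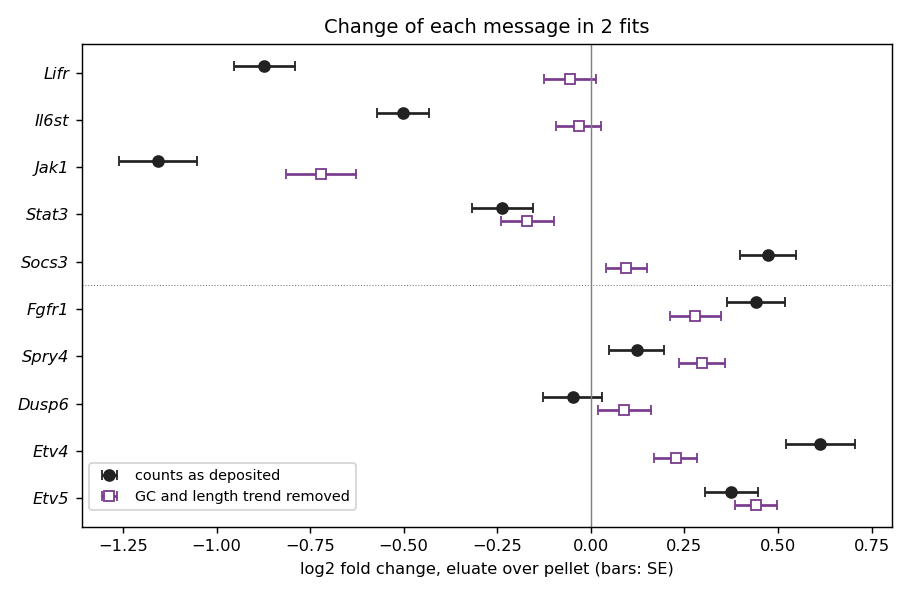
Log2 fold change, eluate over pellet (horizontal axis, bars show SE), of each message (rows, LIF pathway above the dotted line and FGF pathway below), from the counts as deposited (filled circles) and after removal of the trend in GC content and length (open squares). Lifr and Il6st lie at -0.87 and -0.50 in the first fit and near 0 in the second, whereas Jak1 stays low, at -1.16 and -0.72.

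The files list transcripts one by one, and 31 transcripts of the 10 genes were present, of which 25 had counts and 19 were tested. Of these, 6 were called higher in the eluates, 5 lower and 8 not, against 26.4% of all 19207 transcripts tested called in either direction (11.9% higher, 14.6% lower). Salmon divides reads between overlapping transcripts by estimate, so a count for a transcript is less certain than the count for its gene. Leaving out 1 library left 6 to 11 of the transcripts called; the count was 6 without eluate 1 and 7 without eluate 3. The calls given for Lifr-203, Il6st-203, Fgfr1-203 and Etv4-202 held in every such setting. Those of Etv4-201, Fgfr1-201, Fgfr1-202 and Il6st-201 were lost without eluate 1, without eluate 3 and in some other settings. They were also lost with replicate number as a block in the fit. When a library was left out, their edgeR adjusted p reached 0.110, 0.0666, 0.0978 and 0.055.

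Of the Lifr transcripts, the long form fell. Lifr-203 and Lifr-201 have the same coding sequence of 3279 bases but 3′ untranslated regions of 6320 and 574 bases. Lifr-203 had 469, 466 and 359 estimated counts in the eluates, against 659, 800.5 and 634 in the pellets, a log2 fold change of -1.03 (SE 0.085; edgeR adjusted p = 0.00189). Lifr-201 had 80.0, 50.1 and 72.4 estimated counts in the eluates, against 43.0, 39.3 and 42.6 in the pellets, and was not called (log2 fold change 0.34, SE 0.279; edgeR adjusted p = 0.449). The long form accordingly made up 63.9%, 70.2% and 62.8% of Lifr TPM in the eluates, against 80.0%, 87.2% and 81.4% in the pellets. These shares did not overlap; the two-sided exact permutation p was 0.1, the smallest that 3 against 3 libraries allow (0.5 after Benjamini-Hochberg adjustment over 25 shares). Lifr-207, with a shorter coding sequence of 2160 bases, had 16, 20.2 and 11.5 estimated counts in the eluates, against 0, 6.26 and 0 in the pellets, and was not called (edgeR adjusted p = 0.180). Lifr-202, with a coding sequence of the same length, went the other way. It had 4.93, 0 and 0 estimated counts in the eluates, against 18.6, 0 and 12.8 in the pellets, and was not among the transcripts tested.

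Il6st, by contrast, fell in both of its main forms. Il6st-201, with a 3′ untranslated region of 2415 bases, had a log2 fold change of -0.46 (SE 0.088; edgeR adjusted p = 0.0131), and Il6st-203, with the same coding sequence and 5641 bases, -0.65 (SE 0.105; edgeR adjusted p = 0.0075). Their shares of Il6st TPM overlapped between the groups. The long form made up 19.0% to 21.1% in the eluates, against 19.97% to 26.7% in the pellets.

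Among the Fgfr1 transcripts, a form without an exon was assigned reads in the pellets only. Fgfr1-203 was listed at 0 in all 3 eluates, against 84.9, 168 and 41.5 estimated counts in the pellets (edgeR adjusted p = 0.0055, and 0.0055 to 0.036 over the alternatives). It lacks exon 3, 267 bases that lie within the part of the message for the first of the receptor's immunoglobulin-like domains, and whose length keeps the reading frame. The exon is printed because no other exon of Fgfr1-202 is missing entirely from Fgfr1-203; their coding sequences have 2463 and 2202 bases, so they also differ outside it. It lies at chr8:25555508-25555774 (GRCm38, plus strand) and holds coding bases 92 to 358 of Fgfr1-202, with 62.9% GC.
Fgfr1 exon 3: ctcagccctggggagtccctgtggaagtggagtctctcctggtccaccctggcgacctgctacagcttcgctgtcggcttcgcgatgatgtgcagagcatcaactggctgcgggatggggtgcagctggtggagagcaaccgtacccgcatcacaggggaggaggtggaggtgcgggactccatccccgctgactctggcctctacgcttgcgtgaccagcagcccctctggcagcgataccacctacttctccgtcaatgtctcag
Fgfr1-202, which has the exon, had 645, 610.5 and 577 estimated counts in the eluates, against 307, 223 and 288 in the pellets (log2 fold change 0.80, SE 0.199; edgeR adjusted p = 0.0322). Fgfr1-201, which also has it, had a log2 fold change of 0.57 (SE 0.123; edgeR adjusted p = 0.0195). A 0 here is an estimate for the transcript and not a count of reads across the exon junction, and because the forms share most of their sequence, reads given to one are taken from another. The shares of Fgfr1-203 varied widely among the pellets, at 18.0%, 34.1% and 10.7% of Fgfr1 TPM, and the gene as a whole was 1.36-fold higher in the eluates.

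**Figure D4:**
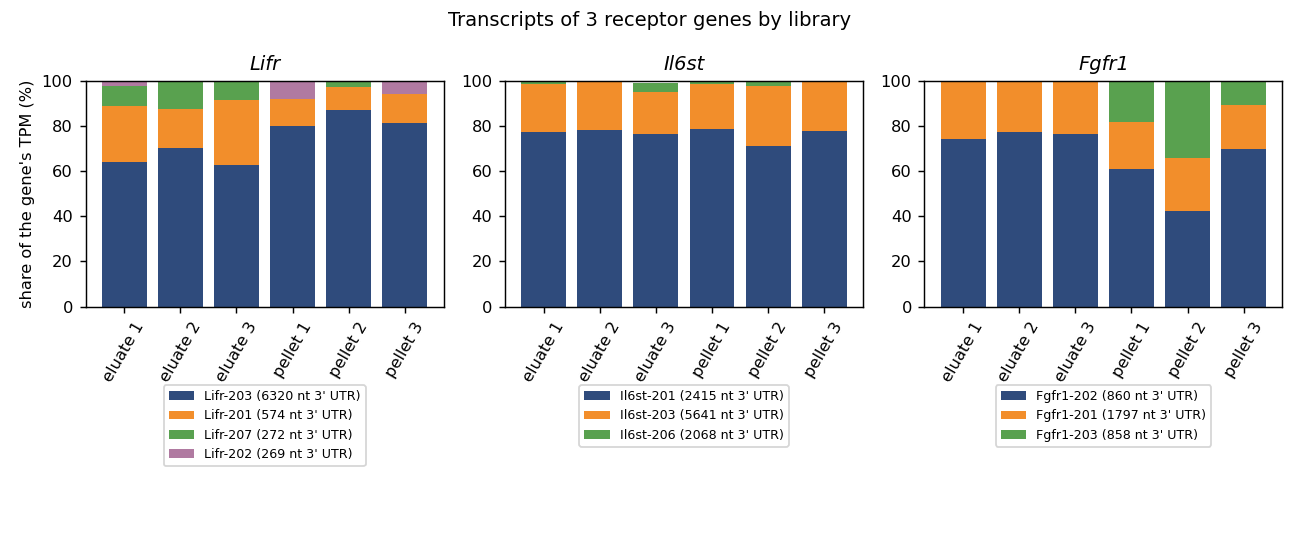
Share of the gene's TPM in percent (vertical axis) held by each transcript of Lifr, Il6st and Fgfr1 in eluates 1 to 3 (left) and pellets 1 to 3 (right), for transcripts with at least 1% in a library. The long Lifr-203 holds 62.8% to 70.2% in the eluates and 80.0% to 87.2% in the pellets, and the Il6st forms overlap. Fgfr1-203 is assigned reads by Salmon's estimate in the pellets only.

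Among the other genes, Etv4-201 and Etv4-202, whose coding sequences have 1461 and 1443 bases, had log2 fold changes of 0.60 (SE 0.148; edgeR adjusted p = 0.0310) and 0.58 (SE 0.079; edgeR adjusted p = 0.0046). Stat3-203, the main form, was at -0.24 (edgeR adjusted p = 0.0880). Stat3-202, with a coding sequence of 2169 bases, had 19.2, 8.08 and 28.8 estimated counts in the eluates, against 23.2, 18.9 and 14.5 in the pellets, and was not called (edgeR adjusted p = 0.727).

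Ratios between messages within a library do not depend on the scaling between libraries, and 7 were compared from TPM. The trend in GC content and length was not removed from these ratios. In the fit with that trend removed, the log2 fold changes were 0.095 for Socs3 and -0.055 for Lifr. For Jak1 and Stat3 they were -0.72 and -0.17. The largest difference of the 7 was between feedback inhibitor and receptor. Socs3 stood at 11.1, 11.9 and 12.2 times Lifr in the eluates, against 6.06, 5.86 and 4.90 times in the pellets, a difference of 1.07 on the log2 scale, and of 1.35 from estimated counts. Jak1 stood at 0.313, 0.306 and 0.299 times Stat3 in the eluates, against 0.575, 0.533 and 0.581 times in the pellets, a difference of -0.88 on the log2 scale. Socs3 to Stat3 differed by 0.69, Fgfr1 to Dusp6 by 0.41 and Lifr to Il6st by -0.18. The groups did not overlap in these 5 ratios, each with a two-sided exact permutation p of 0.1, the smallest possible (0.14 after Benjamini-Hochberg adjustment over the 7). The ratios of Spry4 to Dusp6 and of Etv4 to Etv5 overlapped, with differences of 0.16 and 0.20 and exact permutation p of 0.3 and 0.2.

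By length-corrected level, the ETS factors and the feedback messages stood above the receptors and kinase in both groups. In the eluates the order of mean TPM was Etv4 (98.3 ± 5.28), Socs3 (75.8 ± 1.1), Etv5 (71.1 ± 2.26), Spry4 (52.5 ± 1.46), Dusp6 (22.5 ± 0.969), Fgfr1 (17.8 ± 0.717), Stat3 (14.2 ± 1.38), Il6st (13.9 ± 0.306), Lifr (6.47 ± 0.42) and Jak1 (4.34 ± 0.519), each as mean and SD of 3 libraries. Of these neighbours in the order, the ranges of Stat3 and Il6st alone overlapped. In the pellets Etv4 was at 71.3 ± 15.0 TPM and Socs3 at 60.5 ± 9.26 TPM, followed by Etv5 (58.7 ± 8.62) and Spry4 (51.6 ± 6.54), and each of these overlapped the next. Below them came Dusp6 (24.6 ± 1.78), Il6st (20.4 ± 2.45), Stat3 (18.1 ± 1.52), Fgfr1 (14.6 ± 1.63), Lifr (10.8 ± 1.16) and Jak1 (10.2 ± 1.24). In this lower part of the order, the ranges of Il6st and Stat3 overlapped, and those of Lifr and Jak1. Fgfr1 therefore ranked above Stat3 and Il6st in the eluates and below both in the pellets.

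Other genes of the same pathways moved in both directions. Of 86 listed by role, 81 were tested; 27 were called higher in the eluates, 23 lower and 31 not, so 61.7% were called against 52.7% of all genes. After removal of the trend in GC content and length, 20 were higher and 4 lower, so 29.6% were called against 34.8% of all genes.

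Among the receptors and ligands of the IL6 family, 1 of 4 tested was called, beside 52.7% of all genes. It was Cntfr, a receptor chain for ciliary neurotrophic factor, with a log2 fold change of 0.67 (edgeR adjusted p = 0.0082). Cntfr averaged 11.02 ± 2.4 CPM in the eluates and 6.90 ± 1.21 CPM in the pellets. Without eluate 3, the highest library, it was not called (0.50; edgeR adjusted p = 0.0628), nor was it with the trend removed (0.19). Il11ra1, the most abundant of the list, averaged 12.6 CPM in the eluates and 10.7 CPM in the pellets and was not called; its log2 fold change was 0.23, and -0.23 with the trend removed. Of 9 further JAK and STAT genes, 2 were called higher and 3 lower (median 0.07), beside 24.5% higher and 28.2% lower among all genes. With the trend removed 1 was called higher and 0 lower, beside 19% and 15.8% of all genes. Jak2, which like JAK1 binds gp130, was lower, at 3.71 ± 1.41 CPM in the eluates and 8.45 ± 1.27 CPM in the pellets (log2 fold change -1.20; edgeR adjusted p = 0.0011), but not called with the trend removed (-0.50; edgeR adjusted p = 0.0944). Stat6 was higher, at 62.1 CPM in the eluates and 49.7 CPM in the pellets (log2 fold change 0.32; edgeR adjusted p = 0.0035).

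The negative regulators of LIF signalling other than Socs3 had 3 of 13 higher and 6 lower (median -0.31), beside 24.5% higher and 28.2% lower among all genes, and with the trend removed 2 were higher and 1 lower (median 0.11). Ptpn2, which encodes a phosphatase acting on Janus kinases and STATs, averaged 29.0 CPM in the eluates and 51.4 CPM in the pellets. It was lower in both fits, with log2 fold changes of -0.83 and, with the trend removed, -0.32. The PIAS genes, which encode inhibitors of STATs, were divided. Pias2 was lower (-0.39) and Pias4 higher (0.38), and both signs turned with the trend removed, to 0.11 and -0.062. Of 10 LIF and STAT3 targets, 5 were higher and 2 lower (median 0.31), beside the same shares of all genes. With the trend removed 2 were higher and 1 lower (median 0.0099), beside 19% and 15.8% of all genes. Gbx2, a homeobox factor downstream of LIF, averaged 67.5 CPM in the eluates and 43.7 CPM in the pellets (log2 fold change 0.63; with the trend removed 0.18, not called). The kinase gene Pim3 averaged 354 CPM in the eluates and 233 CPM in the pellets (log2 fold change 0.60; with the trend removed 0.13, not called). Tfcp2l1, a pluripotency factor induced by STAT3, averaged 223 CPM in the eluates and 329 CPM in the pellets (log2 fold change -0.56), but with the trend removed it was called higher (0.17; edgeR adjusted p = 0.0143).

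On the FGF side, 3 of 8 tested ligands and receptors were called higher and the other 5 were not called (median 0.26). Of all genes, 24.5% were called higher and 28.2% lower. Fgf4, the ligand made by embryonic stem cells, averaged 320.3 CPM in the eluates and 276 CPM in the pellets (log2 fold change 0.21; edgeR adjusted p = 0.0117), and Fgf15 averaged 11.97 CPM in the eluates and 7.69 CPM in the pellets (log2 fold change 0.63; edgeR adjusted p = 0.0039). Both were also called higher with the trend removed. The Fgf4 call was lost without eluate 3 (edgeR adjusted p = 0.0589) or pellet 3 (edgeR adjusted p = 0.0667). The adaptors and switches leading to RAS had 3 of 13 higher and 7 lower (median -0.29), beside the same shares of all genes. With the trend removed 5 were higher and 1 lower, beside 19% and 15.8% of all genes. Nf1, which encodes a RAS inhibitor with a coding sequence of 8526 bases, averaged 9.36 CPM in the eluates and 21.2 CPM in the pellets (log2 fold change -1.17; with the trend removed -0.21, not called). Hras averaged 176 CPM in the eluates and 120.5 CPM in the pellets (log2 fold change 0.55; with the trend removed -0.078). Nras, the most abundant of the list, was not called (-0.11) but was called higher with the trend removed (0.29).

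Of 10 genes from RAF to ERK and its kinases, 5 were higher and 3 lower (median 0.16), beside 24.5% higher and 28.2% lower among all genes. With the trend removed 5 were higher and 1 lower, beside 19% and 15.8% of all genes. Map2k2, which encodes the ERK kinase MEK2, averaged 143 CPM in the eluates and 84.8 CPM in the pellets (log2 fold change 0.76; with the trend removed 0.17, edgeR adjusted p = 0.0431). Rps6ka3, which encodes a kinase activated by ERK, averaged 16.4 CPM in the eluates and 29.9 CPM in the pellets (log2 fold change -0.86; with the trend removed 0.13, not called). The other feedback genes and ERK targets divided into 5 higher, 2 lower and 7 not called (median 0.16), beside 52.7% of all genes called. With the trend removed 2 were called, both higher (median 0.048), beside 34.8% of all genes called. Dusp5, a phosphatase gene like Dusp6, averaged 17.9 CPM in the eluates and 12.3 CPM in the pellets (log2 fold change 0.53; edgeR adjusted p = 0.0034), and was not called with the trend removed (0.22; edgeR adjusted p = 0.167). Spred1, a Sprouty relative, averaged 57.6 CPM in the eluates and 80.9 CPM in the pellets (log2 fold change -0.49), and was called higher with the trend removed (0.51). Egr1, an immediate early gene, varied among replicates more than between groups, at 131 ± 41.5 CPM in the eluates and 126 ± 46.8 CPM in the pellets (SD, n = 3 each); it was highest in eluate 1 and in pellet 1.

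**Figure D5:**
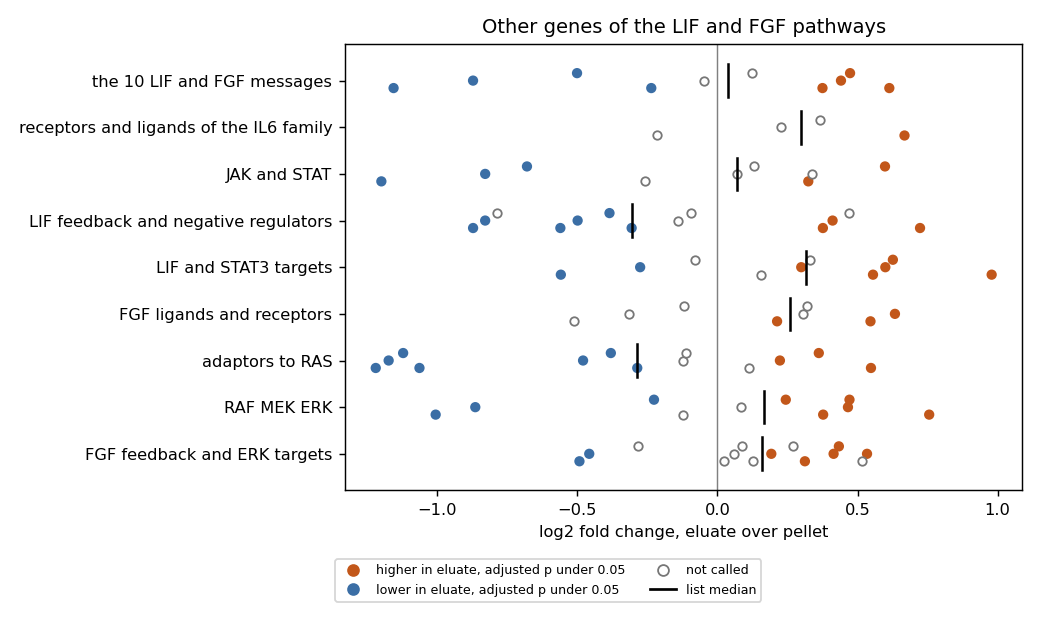
Log2 fold change, eluate over pellet (horizontal axis), of each tested gene in the lists by role (rows), filled where the edgeR adjusted p was under 0.05 (orange higher, blue lower in the eluates) and open where not, with the list median as a black bar. Every list spans 0, and the medians run from -0.31 for the LIF feedback genes to 0.31 for the LIF and STAT3 targets.

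Genes whose log2 CPM ran most like those of the extreme messages were sought among 8775 genes with a mean of at least 10 CPM. For Jak1, the highest Pearson correlations over the 6 libraries were with Mcm6 (0.9999), Mtss1 (0.9991) and Stt3b (0.9991), whose own log2 fold changes were -0.50, -0.72 and -0.72. For Etv4 they were with Fam234a (0.9990), Cdkn1c (0.9990) and Fbrsl1 (0.9984), with log2 fold changes of 0.49, 0.39 and 0.67. With 6 libraries in 2 groups, correlations above 0.95 were common, at 1131 genes with Jak1 and 1039 with Etv4.

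The authors' deposited table lists 7 of the 10 messages among its 4892 rows with an adjusted p under 0.05. Its log2 fold changes are -1.14 for Jak1, -0.65 for Lifr, -0.46 for Il6st, 0.42 for Socs3, 0.37 for Fgfr1, 0.57 for Etv4 and 0.37 for Etv5.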

How the data were processed

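Poly(A) RNA libraries of E14 cells were grouped as eluate or pellet by their titles. The build was GRCm39 and the tools were Salmon 1.10.3, STAR 2.7.11b, cutadapt 4.7 and DESeq2 1.44.0, per the submitters' processing notes, which assign them no role; the annotation is not stated there. Each deposited library file holds Salmon's estimated counts, TPM and transcript lengths, per the file headers. The authors' deposited comparison table holds, per its header, log2 fold changes, raw and adjusted p-values, and a score (the Wald statistic).

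The 84226 transcripts were matched by unversioned identifier to GENCODE mouse release 21 (GRCm38; 76858 matched, 75250 with the same length); the other 7368 held 1.63% to 2.35% of a library's counts and were left out. Gene sums of estimated counts were rounded to whole numbers. They were tested with edgeR 4.0.16 under R 4.3.3 (robust quasi-likelihood fit, TMM factors, the default filter, adjusted p under 0.05 by Benjamini-Hochberg over all genes). Transcripts were tested in the same way. Intervals came from limma 3.58.1, with DESeq2 1.42.0 as an alternative. The trend in GC content and length (splines with 5 degrees of freedom) was removed from each library as an offset. TPM were logged with a pseudocount of 1. Python 3.11.15, pandas 2.3.3 and numpy 2.4.6 served for tables. Alternatives were other scaling factors, count filters and tests, log2(TPM + 1), length offsets, the replicate block and leaving out each library. The fits were tested on simulated data.

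Chi-square values per gene were 3.12 to 18.0 within a group and 32.9 to 81.9 between groups, so all 6 were kept as separate samples. The messages, lists and tests were chosen with earlier results of these data known. In each list the named genes are the called member with the smallest p in each direction and the most abundant member; for the messages with the lowest and highest fold change, the 3 most similar genes are named. A gene that this rule names is not reported here.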

Additional observations from a re-analysis of the deposited data

How the results depend on the processing

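Over the alternatives, 166 of 190 values of the 10 messages kept direction and call, 17 lost the call, 3 gained it and 4 changed sign; for the named pathway genes the same held for 325 of 380, with 26 lost and 29 of opposite sign, and for the transcripts for 137 of 167, with 26 lost, 1 gained and 3 of opposite sign. The cause was not tested. Removing the GC and length trend left 4610 genes, 5 of the 10 messages and 24 pathway genes called, against 6977, 8 and 50 in the counts as deposited, and with the replicate block added 4575, 5 and 26; removing the GC trend alone left 23 pathway genes, and log2(TPM + 1) left 30 pathway genes and 6 transcripts against 11. Each pellet was divided, but the labels do not say that a shared number marks the same pellet. The main fits left the numbers unpaired. With each group's mean taken out, same-numbered eluates and pellets correlated at 0.0698, 0.151 and -0.0102, and those with different numbers at -0.176 to 0.111. With so few libraries these values cannot show whether a number marks a shared pellet. The replicate block gave 7076 genes, 8 messages, 52 pathway genes and 7 transcripts. Etv4-201, Fgfr1-201, Fgfr1-202 and Il6st-201 were then not called. Leaving out 1 library gave 5839 to 7761 genes, 7 to 8 messages, 42 to 52 pathway genes and 6 to 11 transcripts. From estimated counts in place of TPM the ratio of Lifr to Il6st differed by -0.37, Fgfr1 to Dusp6 by 0.49 and Socs3 to Lifr by 1.35. Dusp6 turned to 0.042 with upper quartile factors. Other values that changed sign did so as follows, after removal of the trend in GC and length, of the GC trend alone, and of the first trend with the block added, in that order. Dusp6 was at 0.090, 0.11 and 0.089, Il11ra1 at -0.23, -0.14 and -0.22, Pias4 at -0.062, -0.097 and -0.061, Pias2 at 0.11, 0.19 and 0.11, Nras at 0.29, 0.32 and 0.29, Spred1 at 0.51, 0.30 and 0.50, and Egr1 at -0.078, -0.27 and -0.080. In the first and last of these settings Tfcp2l1 was at 0.17 and 0.17, Hras at -0.078 and -0.078, and Rps6ka3 at 0.13 and 0.13. Nras was at 0.11 with the abundance-weighted length offset, and Egr1 at -0.055 on the TPM scale. Leaving out 1 library put Egr1 between -0.23 and 0.41, Stat3-201 between -0.72 and 0.16 and Stat3-202 between -0.88 and 0.039. A filter of 1 CPM in 3 libraries passed the genes already tested. Depth limits the minor transcripts most, some of which had under 30 estimated counts in a library.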
